A study of Mus musculus with 39 samples.

Results

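Keratins 8, 18 and 19 and the cell surface adhesion molecules E-cadherin, N-cadherin and EpCAM were read at their genes, Krt8, Krt18, Krt19, Cdh1, Cdh2 and Epcam, in peak lists of 4 histone modifications from 3 populations of naive extra-embryonic endoderm (nEnd), a mouse culture model of the early primitive endoderm. These 6 genes were chosen by name, out of 21938 protein-coding genes, and every peak lying in the gene body or within 20 kb of either end was taken. That gave 203 peaks out of 432096 listed in 36 libraries, of which 75 were H3K4me1, 87 H3K27ac, 18 H3K27me3 and 23 H3K9me3. The cells came from an untreated mouse line with an OCT4-mCherry protein reporter, held as nEnd and sorted by FACS on mCherry and on an APC-labelled antibody to PDGFRA. Oct4+ cells carried the reporter alone, DP cells were positive for both, and Pdgfra+ cells for PDGFRA alone. All libraries thus come from a single line, with 3 replicates of each mark in each population. The study calls its replicates biological, and the labels do not say whether they were separate cultures, so p-values measure only the spread between these libraries. The study set these marks against each other to ask which regulatory regions are active, primed or repressed in each population.

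Keratins are intermediate filament proteins that work as pairs of a type II and a type I chain. Krt8 encodes the type II chain and Krt18 and Krt19 the type I chains of simple epithelia, such as the trophectoderm and the endodermal sheets of the early embryo. Cdh1 encodes the calcium-dependent adhesion protein of epithelial adherens junctions, Cdh2 its mesenchymal and neural counterpart, and Epcam a separate epithelial adhesion molecule. H3K27ac marks active promoters and enhancers, H3K4me1 lies at enhancers whether or not they are active, H3K27me3 is laid down by Polycomb repressive complex 2, and H3K9me3 is the mark of heterochromatin.

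The lists differed greatly in length, and the depth of sequencing is unknown, so a region without a listed peak may still carry the mark. For H3K27ac, Oct4+ cells had the longest lists (8574 to 65131 peaks), ahead of DP cells (3079 to 12244) and Pdgfra+ cells (4792 to 7128). Total signal is fragment coverage summed over the bases of a peak, not scaled to depth, and its lowest listed value differed between libraries of all marks from 3752 to 52608. The population labels were checked on pluripotency and endoderm genes. H3K27ac was listed in at least 2 of 3 Oct4+ libraries at all 5 of Pou5f1, Nanog, Esrrb, Sox2 and Zfp42, and at 0 of these 5 in DP and in Pdgfra+ cells. At Pdgfra, Gata6, Gata4, Sox17 and Sox7 it was listed at 4, 5 and 5 genes in the order Oct4+, DP, Pdgfra+, and H3K27me3 at 5, 1 and 0.

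In brief, the region between Krt8 and Krt18 carried H3K27ac in all 6 DP and Pdgfra+ libraries and, nearer Krt8, in 2 of 3 Oct4+ libraries. The stretch next to Krt18 carried it in all 6 DP and Pdgfra+ libraries and in none of the Oct4+ libraries. Cdh1 carried H3K27ac peaks within its first 23.5 kb in all 9 libraries and near its start in 8 of 9, and no H3K27me3 peak in any. Cdh2 carried H3K27me3 within 2.5 kb of its start in 8 of 9 libraries and no H3K27ac there. Most gene starts lacked listed H3K27ac in at least 2 of 3 libraries of each population. Beyond the end of Epcam lay an H3K9me3 domain that was listed in all 9 libraries.

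**Figure D1:**
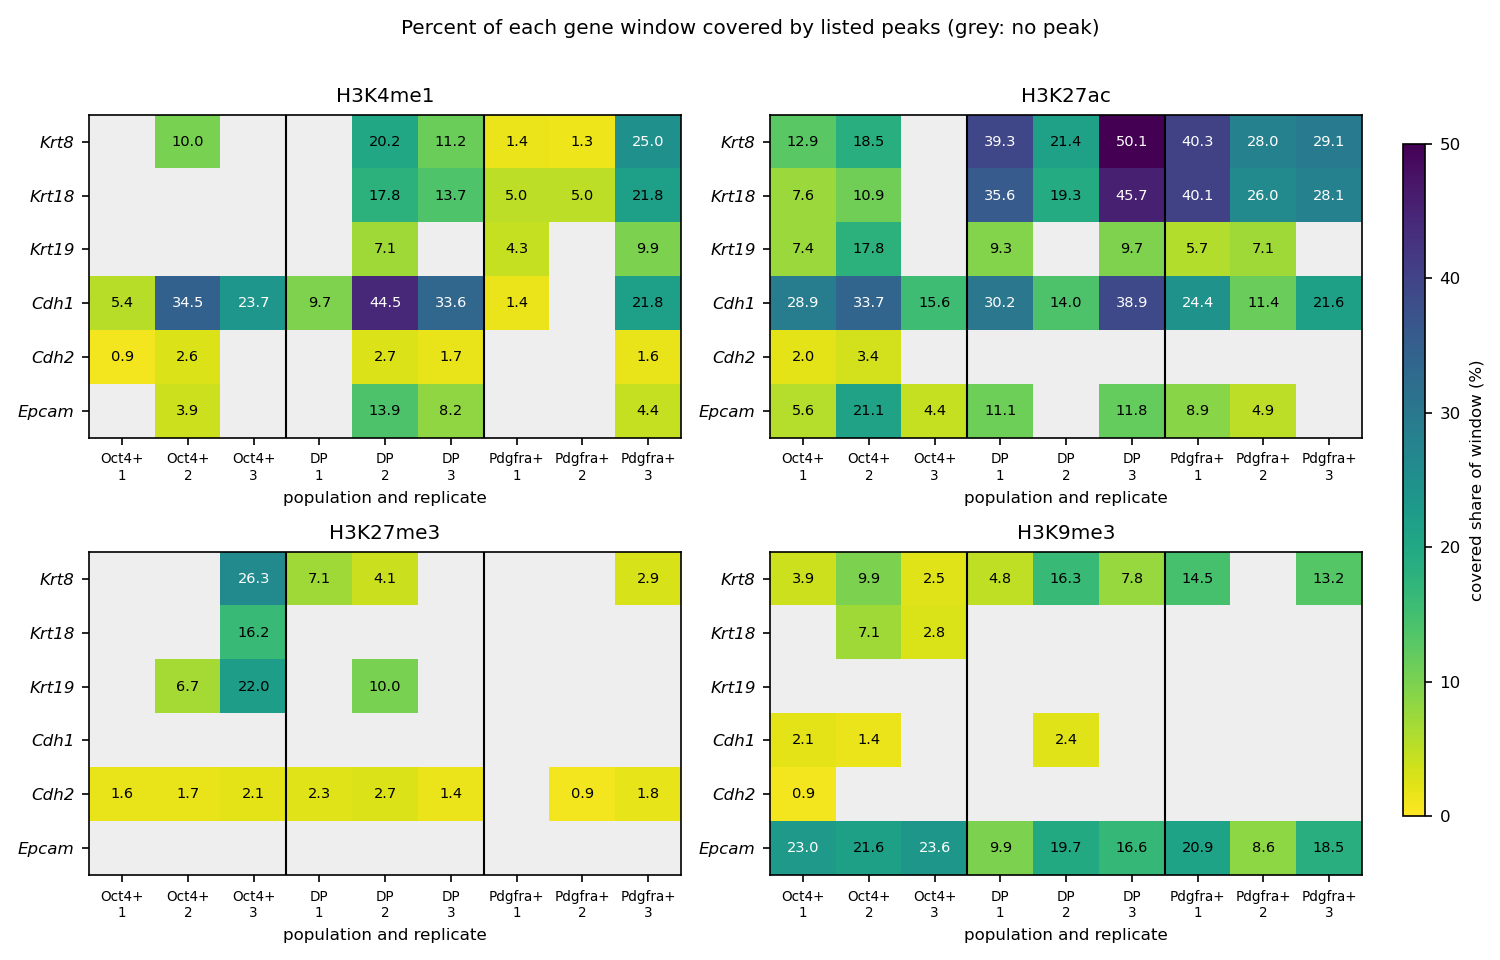
Percent of each gene's window (gene body plus 20 kb either side) covered by listed peaks, for 4 marks (panels), 6 genes (rows) and 9 libraries (columns, by population and replicate). Colour and printed value give the covered share and grey means no listed peak; Krt8 and Krt18 fill with H3K27ac in DP and Pdgfra+ libraries, Cdh1 in all 9, and Epcam with H3K9me3 in all 9.

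Krt8 lies on the minus strand at chr15:101996698-102004482 (GRCm38, as all coordinates here) and Krt18 on the plus strand at chr15:102028180-102032027. The genes point away from each other across a gap of 23.7 kb, and their windows share 16.3 kb, so that many peaks count for both and the genes are not independent observations. RefSeq promoters of both (250 bases before to 50 after the RefSeq start, gene strand) are printed because the acetylated regions described next run over them. The third sequence, on the plus strand, is 300 bases around the H3K27ac maxima of the acetylated region next to Krt18. Capitals mark matches, on either strand, to 7 motifs. The motif of the AP-1 family was searched as TGANTCA, that of GATA factors as AGATAA, the GC box bound by SP factors as GGGCGG and the E-box bound by SNAIL and ZEB repressors as CAGGTG. The TEAD motif was searched as GGAATG, the TATA box as TATAAA and the octamer of OCT4 as ATGCAAAT.
Krt8 promoter, chr15:102004293-102004592: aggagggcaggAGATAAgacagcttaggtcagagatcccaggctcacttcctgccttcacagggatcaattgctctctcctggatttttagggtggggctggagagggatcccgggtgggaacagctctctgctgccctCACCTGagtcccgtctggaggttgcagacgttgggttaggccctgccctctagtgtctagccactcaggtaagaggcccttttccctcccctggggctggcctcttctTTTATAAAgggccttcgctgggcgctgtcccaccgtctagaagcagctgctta
Krt18 promoter, chr15:102027966-102028265: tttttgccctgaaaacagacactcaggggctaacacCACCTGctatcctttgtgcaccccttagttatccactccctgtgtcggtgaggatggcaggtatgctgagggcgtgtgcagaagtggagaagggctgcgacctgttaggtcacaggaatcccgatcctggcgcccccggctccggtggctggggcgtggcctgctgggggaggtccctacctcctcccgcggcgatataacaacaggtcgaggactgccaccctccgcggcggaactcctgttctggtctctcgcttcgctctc
Krt18 upstream element, chr15:102025460-102025759: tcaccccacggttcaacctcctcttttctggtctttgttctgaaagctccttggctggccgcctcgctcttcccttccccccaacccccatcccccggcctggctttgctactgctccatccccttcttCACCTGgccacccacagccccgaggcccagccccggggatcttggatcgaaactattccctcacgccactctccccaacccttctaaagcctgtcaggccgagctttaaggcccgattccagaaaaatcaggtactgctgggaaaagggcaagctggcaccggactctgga
The Krt8 promoter held a GATA match at bases 12 to 17, an E-box at 140 to 145 and a TATA box matched on both strands, at 248 to 253 and 250 to 255, which overlap. The Krt18 promoter held an E-box at bases 37 to 42 and no other match, and the upstream element an E-box at bases 130 to 135 and no other. E-boxes are common: 20.2% of 32851 RefSeq promoters held one, as did 22.9% of 7128 windows of the same length centred on the maxima of an H3K27ac list (Pdgfra+ replicate 2). GATA matches occurred in 11.2% of promoters and TATA boxes in 13.6%. The promoter of Krt18 held 17 CpG and that of Krt8 held 6, against a median of 7 over all promoters. In the annotation the upstream element overlaps no gene, and the Krt8 promoter also overlaps an exon of the lincRNA Gm36026.

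Krt18 had the largest difference in H3K27ac between Oct4+ and Pdgfra+ cells of the 6 members. Its peaks covered 7.57, 10.9 and 0% of the Krt18 window in Oct4+ replicates 1 to 3. In DP the shares were 35.6, 19.3 and 45.7%, and in Pdgfra+ 40.1, 26.0 and 28.1%. Every DP and every Pdgfra+ library thus lay above every Oct4+ library, an order shown by 0.579% of all windows for DP and 0.697% for Pdgfra+. The means were 6.15 ± 5.58, 33.5 ± 13.3 and 31.4 ± 7.60% (SD, n = 3 each, in the order Oct4+, DP, Pdgfra+). All 1680 assignments of the 9 libraries to populations were enumerated with the F statistic as the measure (an exact permutation test, two-sided), which gave p = 0.0393, and the Benjamini-Hochberg adjusted p over the 18706 windows with any H3K27ac peak was 0.478. In that test 8.68% of windows had an unadjusted p below 0.05 and 0% an adjusted one. The smallest p that this exact test can give is 0.00357, and about 0.0357 where 1 population stands apart from 2 that are alike.

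Krt8 gave much the same picture. H3K27ac covered 12.9, 18.5 and 0% of its window in Oct4+, 39.3, 21.4 and 50.1% in DP, and 40.3, 28.0 and 29.1% in Pdgfra+ libraries. Here too the DP and Pdgfra+ values did not overlap those of Oct4+, but the means of 10.4 ± 9.47, 36.9 ± 14.5 and 32.5 ± 6.84% did not pass the exact permutation test (p = 0.0643, adjusted p = 0.542).

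The acetylated ground between the genes fell into 2 regions. The first ran from within Krt8 into the gap, at chr15:102001577-102020710, and was listed in 2 of 3 Oct4+ and in all 6 DP and Pdgfra+ libraries. Its Oct4+ pieces covered 6.15 and 7.14 kb and the DP and Pdgfra+ pieces 7.97 to 18.1 kb. In DP replicate 3 this was the peak of rank 10 by total signal among 12244, and in Pdgfra+ replicate 1 of rank 13 among 4792. The strongest Oct4+ pieces ranked 7986 among 38619 and 6170 among 65131. Merged regions listed in at least 8 libraries made up 3.42% of 78963 H3K27ac regions.

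The second region lay next to Krt18, at chr15:102021612-102029128, from -6.57 to 0.948 kb of the Krt18 start. It was listed in 0 of 3 Oct4+, 3 of 3 DP and 3 of 3 Pdgfra+ libraries, a pattern shown by 0.109% of H3K27ac regions (86 of 78963). Its total signal was 64176, 30640 and 93872 in DP and 86716, 36464 and 83377 in Pdgfra+ replicates 1 to 3. The Oct4+ lists, including the longest of all, held peaks down to totals of 6021, 5460 and 5716 and none here. These totals are not scaled to depth. The peaks ranked within the top 1.75 to 9.19% of their lists, and the midpoints of their maxima fell between -2.68 and -2.52 kb of the Krt18 start, inside the upstream element printed above. The Krt18 start itself was under the peak in every one of these libraries but DP replicate 2. With every H3K27ac list held to its 3079 strongest peaks, to the 50% of highest total signal, or to a common minimum total of 28044, the region remained listed in 0, 3 and 3 libraries. The region nearer Krt8 went to 0, 3 and 3 with equal numbers and with the common minimum. These settings only remove peaks, so the count of 0 Oct4+ libraries next to Krt18 could not change under them. The equal number was the length of the DP replicate 2 list, and the common minimum the lowest total of Pdgfra+ replicate 3. Oct4+ replicates 1 and 2, which held the peaks nearer Krt8, were cut from 38619 and 65131 peaks to the equal number.

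**Figure D2:**
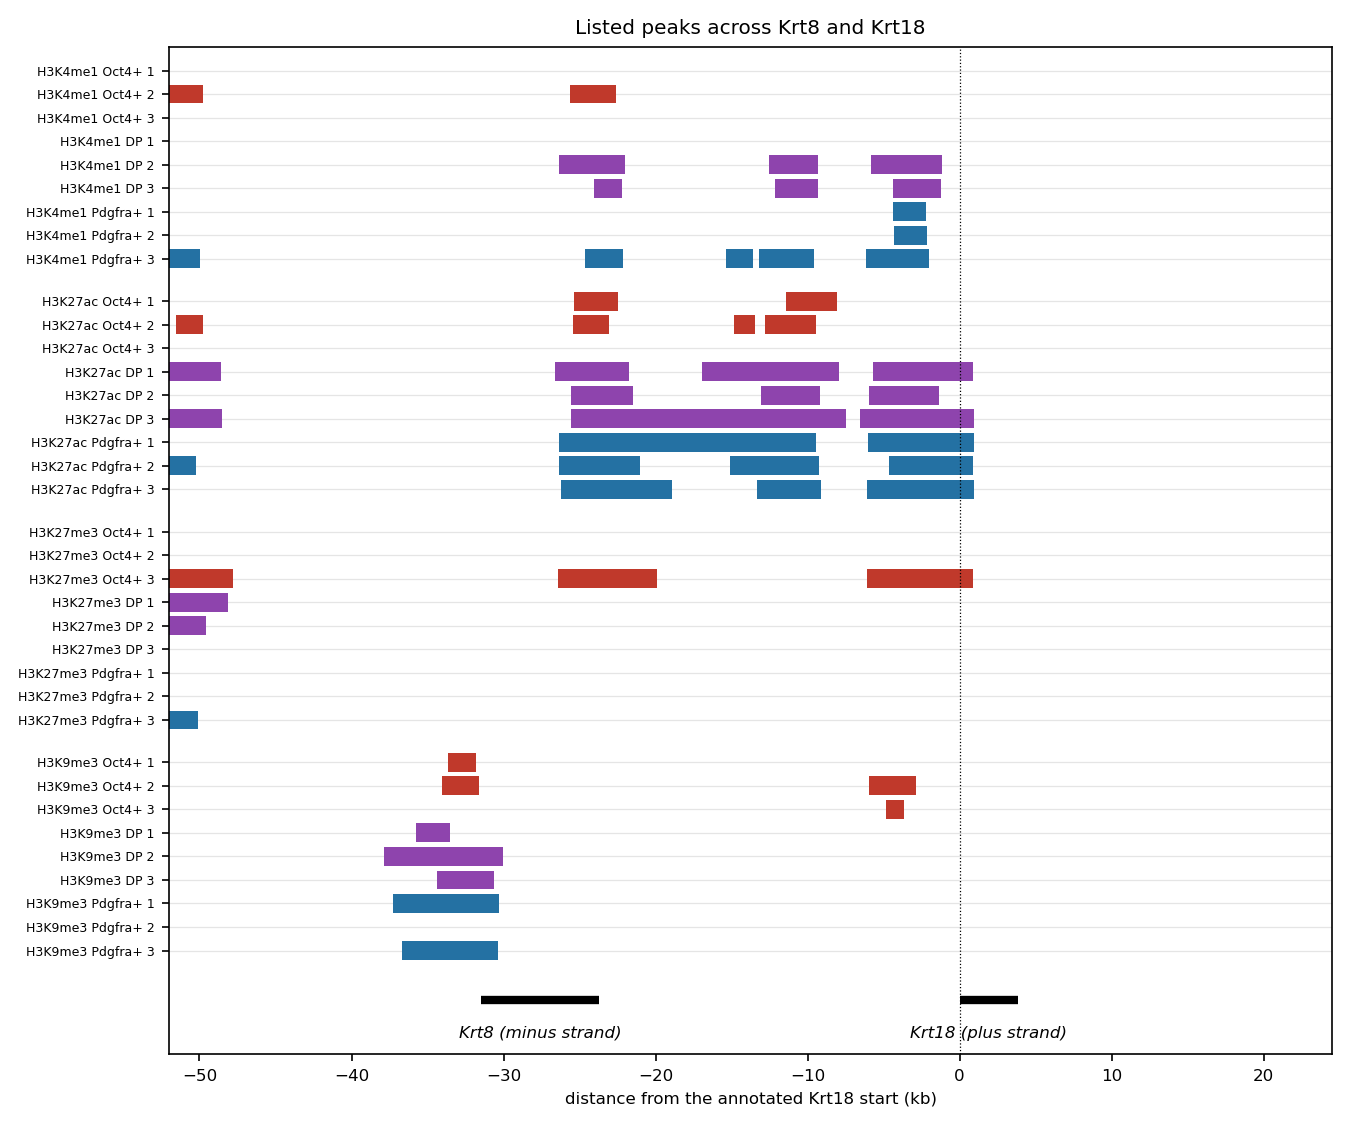
Listed peaks (bars) in 36 libraries across Krt8 and Krt18, by distance from the annotated Krt18 start in kb, with 1 row per library and colour by population (red Oct4+, purple DP, blue Pdgfra+); black bars are the genes and peaks are clipped at the left edge. H3K27ac bars next to the Krt18 start are present in the 6 DP and Pdgfra+ rows and absent from the 3 Oct4+ rows, where H3K27me3 (replicate 3) and H3K9me3 (replicates 2 and 3) are listed.

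The other marks at the same place differed in the lists that held them. H3K4me1 was listed upstream of Krt18, at chr15:102022033-102026999, in 0 of 3 Oct4+, 2 of 3 DP and 3 of 3 Pdgfra+ libraries, in 0, 0 and 3 with equal numbers of peaks and in 0, 2 and 1 with the common minimum total. A window with a peak in 3 of 3 libraries of one population and 0 of 3 of another is called separated here. Krt18 was the single member separated in H3K4me1, where 7.33% of all windows were, and 0.328% in its direction, Pdgfra+ over Oct4+. No member window was separated in H3K27ac or H3K9me3, against 7.88 and 7.99% of all windows. The Pdgfra+ libraries had their H3K4me1 maxima between -4.04 and -3.95 kb, and DP replicates 2 and 3 at -2.52 and -2.30 kb. All of this H3K4me1 region lay under the H3K27ac region. H3K4me1 covered 0% of the Krt18 window in the 3 Oct4+ libraries, 0, 17.8 and 13.7% in DP, and 4.96, 5.02 and 21.8% in Pdgfra+ (exact permutation p = 0.207, adjusted p = 0.747).

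In the full lists, repressive marks were listed over this stretch in Oct4+ libraries alone, though not in all of them. H3K27me3 was listed in Oct4+ replicate 3 at chr15:102022100-102029091, which overlapped 93.0% of the H3K27ac region of the other populations, and in no other of the 9 libraries. H3K9me3 was listed in Oct4+ replicates 2 and 3, at ranks of 58.7 and 96.6% of their lists. The H3K27me3 peak stood at a rank of 52.5% of its list. None of these peaks remained with equal numbers of peaks, the 50% of highest total signal or the common minimum total. Under those settings no library listed either mark here. Neither covered share in the Krt18 window passed the test. The exact permutation p was 1 for H3K27me3 and 0.25 for H3K9me3 (adjusted p = 1 and 0.651). With so few libraries holding a peak the test could not have given lower p-values, so it decides nothing here. Krt8 had in addition an H3K9me3 region at and beyond the 3' end of the gene, at chr15:101990348-101998154, in 2, 3 and 2 libraries, whose peaks reached the gene itself in 0, 2 and 2. With equal numbers of peaks it was listed in 0, 2 and 2 libraries. Of this region 22.7% was repeat-masked against 36.4% of the chromosomes.

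Krt19, the type I keratin that can pair with Krt8 without Krt18, lies at chr11:100140810-100148665 on the minus strand, and its window also takes in Krt13 and Krt15. Window counts hid a difference in position. H3K27ac was listed in 2 of 3 libraries of every population, covering 7.42, 17.8 and 0% in Oct4+, 9.27, 0 and 9.71% in DP, and 5.68, 7.09 and 0% in Pdgfra+. With equal numbers of peaks it was listed in 0, 1 and 1 libraries. In Oct4+ replicates 1 and 2 all peaks of the full lists lay 7.41 kb or more downstream of the Krt19 start, and in DP and Pdgfra+ all lay within 4.87 kb of it. The merged Oct4+ region from 22.6 to 28.1 kb, in replicates 1 and 2, held a Krt13 start. A replicate 2 peak from 14.4 to 16.3 kb overlapped Krt15. Within 2.5 kb of the Krt19 start H3K27ac was therefore listed in 0, 2 and 2 libraries, a count that is no separation of the populations. Within the same distance H3K4me1 was listed in 0, 1 and 2 libraries and H3K27me3 in 2, 1 and 0. The merged H3K27me3 and H3K27ac regions there overlapped over 4.33 kb, or 93.2% of the acetylated one. No mark at Krt19 passed the test (exact permutation p of 0.464 to 0.743), and no H3K9me3 peak was listed, as was so for 39.8% of windows.

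Cdh1 lies at chr8:106603351-106670246 on the plus strand, spanning 66.9 kb, and was acetylated in every population. The sequence below, on the plus strand, lies in an intron of Cdh1 and overlaps no annotated exon. It is centred 16.5 kb from the start, on the median position of the H3K27ac maxima of the Oct4+ and Pdgfra+ libraries. Those maxima lay 16.1 to 16.7 kb from the start, and the sequence holds those of Oct4+ replicate 2 and Pdgfra+ replicates 1 and 3. It is shown because these populations, whose H3K27ac differed more at Krt18 than at any other member, here had their maxima close together.
Cdh1 intronic element, chr8:106619683-106619982: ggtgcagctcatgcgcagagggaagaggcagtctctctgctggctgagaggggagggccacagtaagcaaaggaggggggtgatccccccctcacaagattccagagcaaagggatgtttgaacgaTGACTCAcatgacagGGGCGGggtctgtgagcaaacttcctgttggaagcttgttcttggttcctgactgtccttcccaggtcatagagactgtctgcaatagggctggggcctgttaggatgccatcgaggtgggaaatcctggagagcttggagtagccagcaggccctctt
It held an AP-1 match at bases 127 to 133 and a GC box at 142 to 147, motifs found in 10.9 and 43.8% of the windows centred on H3K27ac maxima.

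H3K27ac covered 28.9, 33.7 and 15.6% of the Cdh1 window in Oct4+, 30.2, 14.0 and 38.9% in DP, and 24.4, 11.4 and 21.6% in Pdgfra+ libraries. The 3 populations overlapped throughout, with means of 26.1 ± 9.39, 27.7 ± 12.7 and 19.1 ± 6.83% (SD, n = 3 each; exact permutation p = 0.532, adjusted p = 0.835). A merged region from -1.17 to 23.5 kb of the start, at chr8:106602180-106626841, held peaks in all 9 libraries, as did 1.96% of H3K27ac regions, and in DP replicate 2 its first peak began 3.67 kb into the gene. Of all windows 15.3% had an H3K27ac peak in all 9 libraries, and the Cdh1 window was longer than 82.6% of windows. The merged region remained listed in all 9 with equal numbers of peaks, with the strongest 50% and with the common minimum total. Its peak ranked 11 among 4861 in Pdgfra+ replicate 3 and 17 among 12244 in DP replicate 3. In the 3 Oct4+ libraries its strongest peak ranked 183 among 38619, 432 among 65131 and 91 among 8574, so that in each of the 3 populations at least 1 library placed it within the top 1% of its list.

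The maximum within this region lay 14.7 to 16.7 kb into the gene in 8 of 9 libraries, and at 0.265 kb, over the promoter, in DP replicate 1. The Cdh1 start itself was within 2.5 kb of an H3K27ac peak in 8 of 9 libraries, which held for 12% of all starts. Further into the gene, at chr8:106631032-106646804, H3K27ac was listed in 3, 2 and 1 libraries, and in 2, 1 and 1 with equal numbers of peaks. A region over the start of the neighbouring gene Tango6 had its maxima 80.1 to 80.2 kb from the Cdh1 start. It was listed in 3, 0 and 0 libraries, and in 0, 0 and 0 with equal numbers of peaks.

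H3K4me1 peaks lay within a merged region from -0.834 to 44.7 kb of the Cdh1 start in 3, 3 and 2 libraries, where their summed width ran from 1.53 kb in Pdgfra+ replicate 1 to 44.0 kb in DP replicate 2. With equal numbers of peaks the region was listed in 2, 3 and 1. H3K4me1 covered 5.45, 34.5 and 23.7% of the window in Oct4+, 9.69, 44.5 and 33.6% in DP, and 1.43, 0 and 21.8% in Pdgfra+. The spread within each population was wide, and the populations overlapped (21.2 ± 14.7, 29.3 ± 17.8 and 7.74 ± 12.2%; exact permutation p = 0.261, adjusted p = 0.766). The H3K4me1 lists of Pdgfra+ replicates 1 and 2 were the shortest of all, with 1723 and 1074 peaks. A separate H3K4me1 region upstream, from -5.75 to -1.87 kb, was listed in 1, 3 and 1 libraries, and in 0, 0 and 0 with equal numbers. No H3K27me3 peak was listed at Cdh1 in any of 9 libraries, as was so for 55.2% of windows, and H3K9me3 was listed in 2, 1 and 0.

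**Figure D3:**
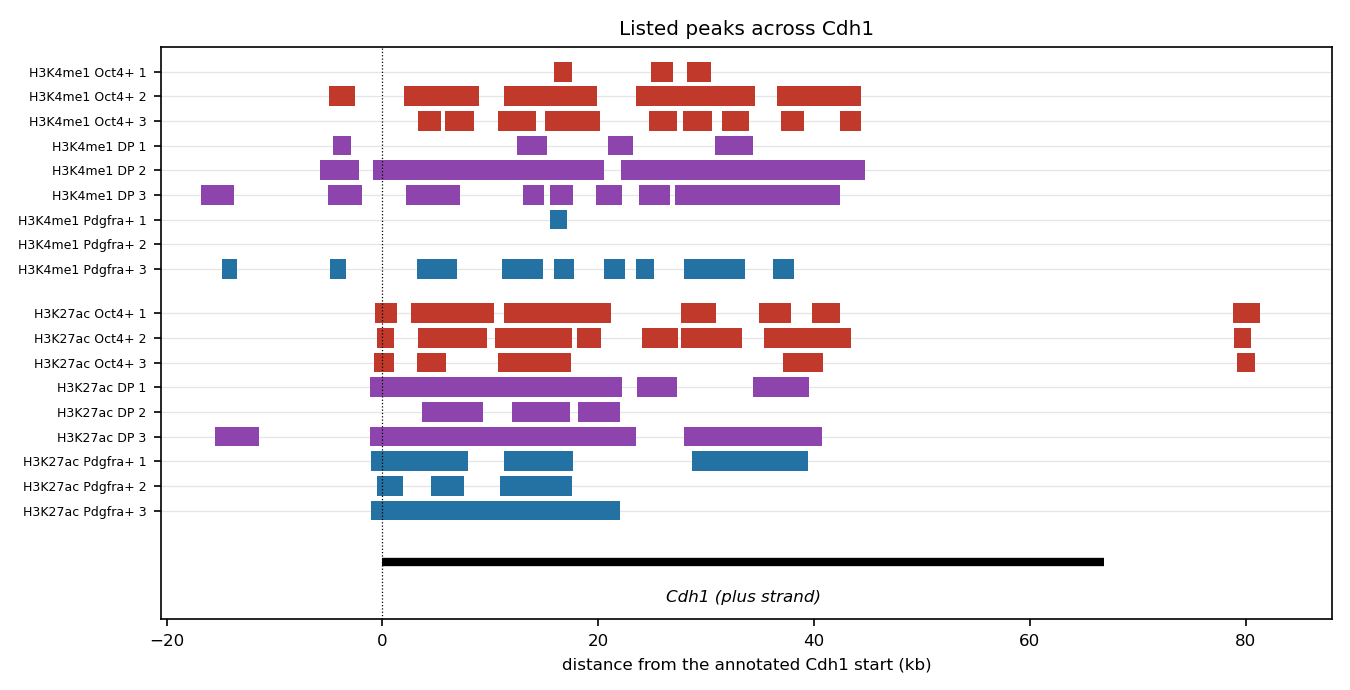
Listed H3K4me1 and H3K27ac peaks (bars) in 18 libraries across Cdh1, by distance from its annotated start in kb, with 1 row per library and colour by population (red Oct4+, purple DP, blue Pdgfra+). H3K27ac bars reach 14.7 to 16.7 kb into the gene in all 9 rows, and the bars at about 80 kb, over the start of Tango6, appear in the 3 Oct4+ rows.

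Cdh2, at chr18:16588877-16809246 on the minus strand, carried H3K27me3 near a start that was free of listed H3K27ac. H3K27me3 was listed in a region from -3.43 to 5.21 kb, in 3 of 3 Oct4+, 3 of 3 DP and 2 of 3 Pdgfra+ libraries. The region was listed in 1, 0 and 0 libraries with equal numbers of peaks, in 3, 2 and 1 with the strongest 50% and in 1, 2 and 1 with the common minimum total. The peaks covered the start in 7 libraries, and in Pdgfra+ replicate 2 the peak began 0.415 kb into the gene. Within 2.5 kb of the start a peak of this mark was listed in at least 8 of 9 libraries at 3.33% of all genes. It covered 1.57, 1.72 and 2.06% of the long Cdh2 window (260 kb) in Oct4+, 2.35, 2.73 and 1.39% in DP, and 0, 0.908 and 1.81% in Pdgfra+, values that overlapped (exact permutation p = 0.15, adjusted p = 0.654). The library without a peak, Pdgfra+ replicate 1, had the shortest H3K27me3 list, of 1143 peaks.

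H3K4me1 was listed within 2.5 kb of the same start in 2, 2 and 1 libraries, and in 0, 0 and 0 with equal numbers of peaks. Its peaks covered the start in Oct4+ replicate 2 and DP replicate 2, and all of the merged region lay under the H3K27me3 region. The maxima of the 2 marks nearly coincided, at 2.29 to 2.32 kb from the start for H3K4me1 and 2.06 to 2.29 kb for H3K27me3. The lists do not tell whether both marks sat on the same cells. No H3K27ac was listed within 2.5 kb of the Cdh2 start in any library. Of all starts 35.3, 31.8 and 19.4% had it within that distance in at least 2 of 3 Oct4+, DP and Pdgfra+ libraries. Most starts thus lacked it by that count. Oct4+ replicates 1 and 2 held weak H3K27ac peaks deeper in the gene, 26.9 kb or more from the start, at ranks of 60.2 to 96.2% of lists that held 38619 and 65131 peaks.

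Epcam lies at chr17:87635979-87651129 on the plus strand. Its RefSeq promoter on the gene strand follows, shown because H3K27ac peaks lay over it in 4 of 9 libraries.
Epcam promoter, chr17:87635729-87636028: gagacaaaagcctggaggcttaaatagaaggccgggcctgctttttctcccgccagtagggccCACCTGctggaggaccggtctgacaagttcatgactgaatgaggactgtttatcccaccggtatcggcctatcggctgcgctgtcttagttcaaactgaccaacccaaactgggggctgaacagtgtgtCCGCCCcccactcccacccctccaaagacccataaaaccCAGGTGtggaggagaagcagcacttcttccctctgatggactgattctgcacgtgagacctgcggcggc
It held E-boxes at bases 64 to 69 and 232 to 237 and a GC box at 193 to 198, the latter found in 35.7% of promoters.

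H3K27ac covered 5.62, 21.1 and 4.40% of the Epcam window in Oct4+, 11.1, 0 and 11.8% in DP, and 8.88, 4.93 and 0% in Pdgfra+ libraries. These overlapped (exact permutation p = 0.65, adjusted p = 0.939). Within 2.5 kb of the start the mark was listed in 1, 2 and 1 libraries, and in a region 26.2 to 34.3 kb from the start, beyond the gene's end, in 3, 2 and 1. That distal region was in 0, 0 and 0 libraries with equal numbers of peaks. H3K4me1 was listed in 1, 2 and 1 libraries, and H3K27me3 in none.

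H3K9me3 was the only mark listed at Epcam in all 9 libraries. It lay in a domain at chr17:87652589-87666581, which begins 1.46 kb beyond the end of Epcam and overlaps no annotated gene. The domain was listed in all 9 libraries, as were 2.9% of H3K9me3 regions, and remained so with equal numbers, the strongest 50% and the common minimum. Of all windows 7.29% had an H3K9me3 peak, at any place in them, in all 9 libraries. Peaks covered 23.0, 21.6 and 23.6% of the window in Oct4+, 9.93, 19.7 and 16.6% in DP, and 20.9, 8.57 and 18.5% in Pdgfra+ libraries. Every Oct4+ library thus lay above every DP and every Pdgfra+ library, though the nearest values were 21.6 and 20.9%. This order held for 6.05 and 7.81% of all windows. The means of 22.7 ± 1.04, 15.4 ± 5.0 and 16.0 ± 6.54% did not pass the test (exact permutation p = 0.193, adjusted p = 0.651).

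The Epcam domain was among the strongest of its lists in Oct4+ cells, at ranks 15 of 29871, 51 of 22912 and 11 of 14160 by total signal. In DP the ranks were 711 of 13676, 148 of 26981 and 202 of 12701, and in Pdgfra+ 666 of 29970, 563 of 5322 and 398 of 13110. The Oct4+ ranks therefore lay within the top 0.223% of the lists and the others between 0.549 and 10.6%. Of the domain, 48.9% was repeat-masked, against 36.4% of the chromosomes. The distal H3K27ac region overlapped the H3K9me3 domain over 4.41 kb, or 54.2% of its own length.

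**Figure D4:**
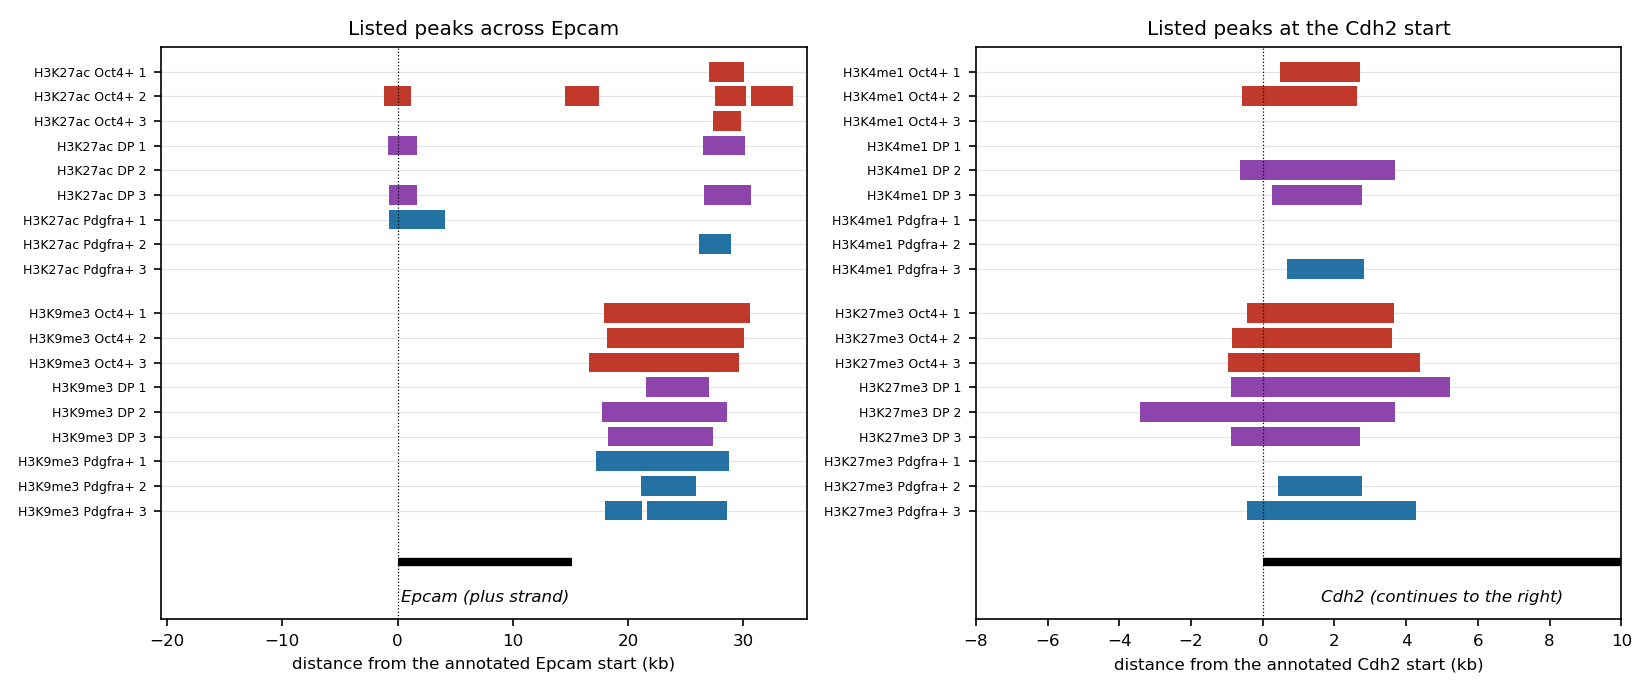
Listed peaks (bars) at Epcam (left, H3K27ac and H3K9me3) and at the start of Cdh2 (right, H3K4me1 and H3K27me3), by distance from the annotated start in kb, with 1 row per library and colour by population (red Oct4+, purple DP, blue Pdgfra+). The H3K9me3 bars beyond the end of Epcam are present in all 9 rows, and H3K27me3 bars within 2.5 kb of the Cdh2 start in 8 of 9.

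The members can be placed in order of H3K27ac by the rank of their strongest peak. At Krt8 and Krt18 the strongest peak lay between the top 0.0817 and 9.19% of the list in DP and between 0.271 and 5.18% in Pdgfra+. At Cdh1 it lay between 0.139 and 5.72% and between 0.226 and 5.86%. Those ranges overlapped. In Oct4+ cells Cdh1 stood higher, at 0.474 to 1.06%, than Krt8 and Krt18, at 9.47 and 20.7% in the 2 libraries that listed them. Krt19 and Epcam ranked lower, and Cdh2 was listed in Oct4+ alone, at 60.2 and 71.7%.

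**Figure D5:**
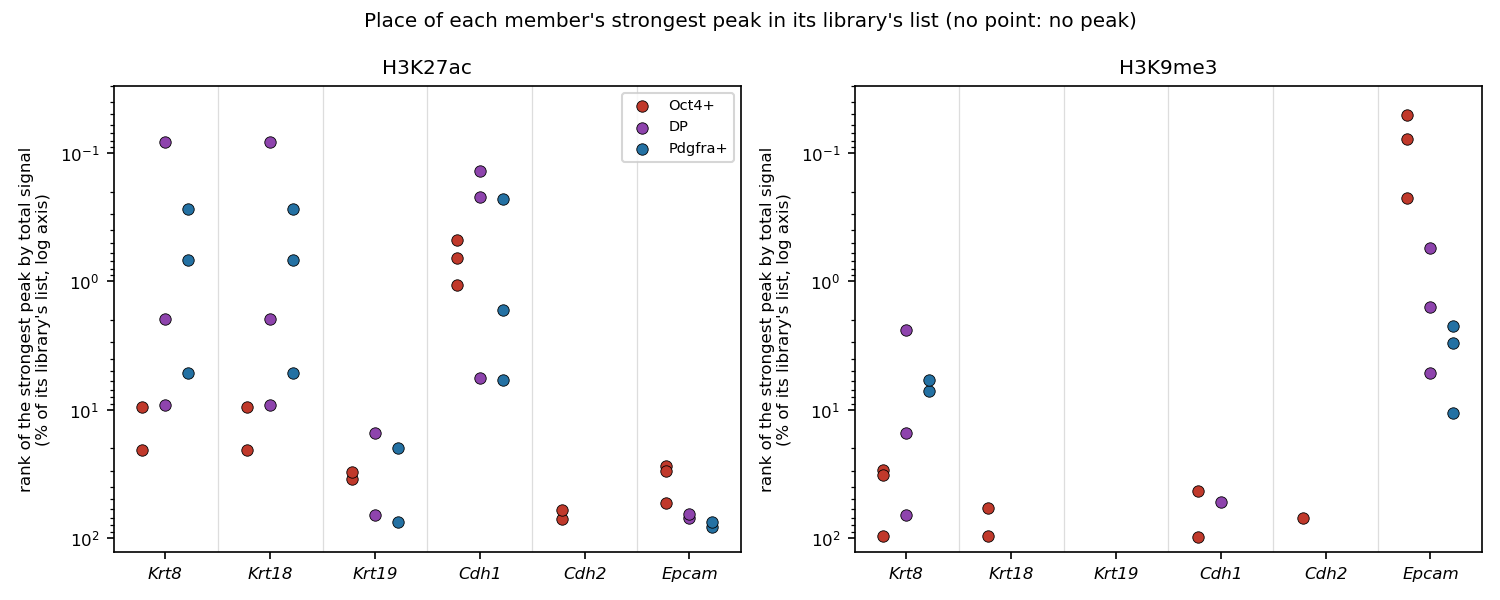
Rank of each member's strongest peak by total signal, as percent of its library's list (log axis, strongest at the top), for H3K27ac (left) and H3K9me3 (right); each point is 1 library, coloured by population, and a library without a peak has no point. Krt8, Krt18 and Cdh1 lead for H3K27ac, with Oct4+ points low or missing at the keratins, and Epcam leads for H3K9me3, with the 3 Oct4+ points at the top.

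Beside the members, 63 genes of epithelial structure, epithelial regulation or mesenchyme were read in the same way and pooled. They were 13 other keratins, 13 adherens junction, 10 desmosome and 11 tight junction genes, 9 epithelial regulators and 7 mesenchymal genes. H3K27ac was listed in at least 2 of 3 libraries at 49, 34 and 27 of the 63 in Oct4+, DP and Pdgfra+, where 69, 49.1 and 34% of all windows had it. The 6 members stood at 6, 5 and 5. For H3K27me3 the counts over the 63 were 23, 34 and 16, where all windows had 17.7, 30.9 and 15.4%, and those of the members 2, 2 and 1. For H3K4me1 the counts were 26, 32 and 10 (29, 33.9 and 10.1% of all windows), and for H3K9me3 20, 19 and 18 (35.4, 30.1 and 25.7%). The median covered share of the 6 members in H3K27ac was 9.40, 17.7 and 11.9%, beside 5.76, 1.68 and 0% over all windows. By the exact permutation test 5, 3, 3 and 5 of the 63 had an unadjusted p below 0.05 in H3K4me1, H3K27ac, H3K27me3 and H3K9me3, and 0 passed after adjustment.

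H3K27ac separated 3 of these 63 genes as Oct4+ over Pdgfra+ and 2 of 63 as Oct4+ over DP, neither share above that of all windows. They were Cdh3, encoding P-cadherin, and Cdh4, encoding R-cadherin, which were listed in 3, 0 and 0 libraries, and Krt17, listed in 3, 1 and 0. Of all windows 7.59% were separated in the direction Oct4+ over Pdgfra+ and 3.32% in the direction Oct4+ over DP, but 0.0456% in the direction Pdgfra+ over Oct4+. Cdh3 was covered by 9.95 ± 6.43% in Oct4+ libraries (SD, n = 3). None of these 3 passed the adjusted test, and the upstream region of Krt18 went the other way.

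H3K27me3 separated more of them, by counts from the full lists. Those lists held 1629, 2948 and 5785 peaks in Oct4+, 3798, 8672 and 6418 in DP, and 1143, 2841 and 6151 in Pdgfra+ replicates 1 to 3. At each replicate number the DP list was thus the longest, and the part of list length in these counts was not tested. Absent from Oct4+ and listed in all 3 DP libraries were Krt16 and Krt17, keratins of stressed and appendage epithelia, the desmosomal plakophilin Pkp3, the desmosome-associated Perp, the claudin Cldn4 and the matrix gene Fn1, encoding fibronectin, 6 of 63 genes where 3.34% of all windows showed this. Krt16 and Krt17 both lie on chromosome 11 and were listed in 0, 3 and 1 libraries. Their windows may share peaks, so these 2 genes may not be independent observations. Pkp3 was covered by 37.4 ± 1.15% in DP and 27.5 ± 18.7% in Pdgfra+, with 0% in Oct4+ (exact permutation p = 0.0143, adjusted p = 0.559), and was also separated as Pdgfra+ over Oct4+, like 0.392% of windows. Ocln, encoding the tight junction protein occludin, was covered by 4.71 ± 1.21, 7.40 ± 0.543 and 0% and reached the smallest exact permutation p this design allows, 0.00357, with an adjusted p of 0.559. The claudin Cldn3 gave the same p and adjusted p, with 9.05 ± 1.72, 72.0 ± 7.24 and 30.1 ± 23.4% covered. It was listed in all 3 libraries of each population and so was not separated. Cdh6 and Cdh13 were listed in 3, 2 and 0 libraries and Cldn6, a claudin of embryonic epithelia, in 2, 3 and 0. Oct4+ cells were separated over Pdgfra+ in 1.39% of windows and DP cells over Pdgfra+ in 2.39%. Of the 13 other keratins 2, the same Krt16 and Krt17, were separated in H3K27me3, and of Krt8, Krt18 and Krt19 none, where 5.99% of all windows were separated.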

How the data were processed

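CUT&Tag tags the DNA around a histone mark with an antibody-guided transposase. The deposited lists are peaks that the authors called per library against IgG with SEACR in stringent mode, from BEDtools coverage of paired-end fragments, and each line of the deposited lists gives total and maximum signal, in whole numbers not scaled to depth. Per the submitters' processing notes the build was mm10 and the tools bcl2fastq 2.19.1, Bowtie2, SAMtools 1.12, deepTools, SEACR and bedtools 2.26.0. The sources used here gave neither SEACR's normalization setting nor the read depth, so the number and lowest total of listed peaks stand in for depth. The 3 IgG samples were not analysed here.

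Windows were GENCODE vM21 protein-coding gene bodies plus 20 kb on GRCm38, whose sequence is that of mm10. For each library the covered share of the window and the presence of a peak were computed in Python 3.11.15 (NumPy 2.4.6, pandas 2.3.3, SciPy 1.17.1), checked against bedtools 2.31.1 and tested on simulated data, and plotted with Matplotlib 3.10.9. The 3 populations were tested on the F statistic by exact permutation of the libraries, with Benjamini-Hochberg adjustment over all windows with a peak of that mark and a threshold of 0.05. Regions were peaks merged over the 9 libraries of a mark, described where listed in at least 5 libraries or where they separated populations. From the other lists, genes separated in H3K27ac or H3K27me3 were named, up to 3 per list and mark by difference in mean covered share. Sequences came from RefSeq and the GRCm38 assembly. The members and lists were chosen with earlier results of these data known. Alternatives were equal numbers of peaks, the 50% of highest total signal, a common minimum total, other windows (no flank, 50 kb, 2.5 kb either side of the start), at least 50% of a peak inside the window, a replicate block and leaving out each library.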

Additional observations from a re-analysis of the deposited data

How the results depend on the processing

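Over all alternatives the covered share passed the adjusted test at 0 windows in every mark, and unadjusted p of the members moved with single libraries (Krt18 H3K27ac, 0.0107 to 0.107 with 1 library left out). No sequencing depth was given, so list length limits every absence. The count of members separated in H3K27ac was 0 with all peaks, 2 with equal numbers of peaks and 2 with the common minimum (Krt8 and Krt18, DP and Pdgfra+ over Oct4+, where 6.42 and 1.69% of all windows were separated), and 1 with no flank and 1 within 2.5 kb of the start (Krt18). In H3K4me1 it was 1 with all peaks, 2 with equal numbers and 0 with the common minimum, no flank or 50 kb. With 1 library left out it ran from 1 to 2 in H3K4me1 (2 without Oct4+ replicate 2, adding Krt8, or Pdgfra+ replicate 2, adding Krt19) and from 0 to 1 in H3K27ac (Cdh2, without Oct4+ replicate 3), in H3K27me3 (Krt19, without Oct4+ replicate 1) and in H3K9me3 (Krt18 without Oct4+ replicate 1, Cdh1 without Oct4+ replicate 3).

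The Oct4+ minus Pdgfra+ difference in covered share, in percentage points, changed sign in these cases, none of which passed the adjusted test, and the cause was not tested. In H3K4me1, with no flank Krt8 gave 4.21 and Epcam 4.67, with 50 kb Epcam gave 4.19, and within 2.5 kb of the start Krt8 gave 3.35 and Epcam 3.67. In H3K27ac, with equal numbers Krt19 gave -2.36 and Cdh1 -1.90, with the common minimum Krt19 gave -1.89, Cdh1 -3.05 and Epcam -2.96, with no flank Krt19 gave -24.0 and Epcam -5.24, and within 2.5 kb Krt19 gave -19.9, Cdh1 -27.7 and Epcam -6.12. In H3K27me3 Krt8 gave -0.977 with the strongest 50% and with the common minimum and -0.0331 with 50 kb, and in H3K9me3 Krt18 gave -1.48 with 50 kb. With 1 library left out the ranges that crossed 0 were -9.86 to 1.96 (Krt8), -0.113 to 1.18 (Cdh2) and -1.47 to 1.28 (Epcam) in H3K4me1, -0.544 to 8.35 (Krt19) in H3K27ac and -0.977 to 12.2 (Krt8) in H3K27me3. Of 324 member results under alternatives 26 changed sign, and the other 298 kept their direction or had a difference of 0.

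Replicate numbers were shared between populations. Of deviations from the population means, 4, 1, 3 and 1 of 9 same-numbered pairs had a correlation above 0.1 in H3K4me1, H3K27ac, H3K27me3 and H3K9me3, and a library correlated best with its own number in 6, 3, 4 and 6 of 18 comparisons. The 3 in H3K27me3 were all those of Oct4+ with Pdgfra+ (0.602, 0.262 and 0.556), and in that mark every pair with DP was below 0. With a replicate block (216 assignments, smallest p 0.0278) 0 windows passed in any mark, Krt18 H3K27ac gave an exact permutation p of 0.111 and Cdh1 H3K4me1 one of 0.0278 (adjusted p = 0.643).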
